A study of Mus musculus with 12 samples.

Results

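The genes described here are 7 genes through which the ileum takes up bile acids and reports on them: Slc10a2, Fabp6, Slc51a, Slc51b, Nr1h4, Fgf15 and Nr0b2. They were chosen by name, with Ensembl identifiers matched to symbols through GENCODE M21, from the 46078 genes in the deposited count tables. The counts came from RNA sequencing of epithelium scraped from the proximal ileum of male C57BL/6 mice, 12 libraries in 4 groups of 3. All mice were gavaged every 4 days for 28 days, from an age of 28 days to 56 days, either with the sesame oil vehicle alone or with 3, 10 or 30 µg/kg TCDD (tetrachlorodibenzo-p-dioxin), a dioxin that activates the aryl hydrocarbon receptor. The dose series asks which of these genes moved with TCDD, and at which dose.

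Bile acids are reabsorbed mainly in the last segment of the small intestine. SLC10A2 (ASBT), on the apical membrane of the ileal enterocyte, brings them in with sodium. FABP6 carries them through the cytosol, and the heterodimer of SLC51A and SLC51B (OSTα and OSTβ) passes them across the basolateral membrane to portal blood. Inside the cell they bind the nuclear receptor FXR, encoded by Nr1h4, which induces Fabp6, Slc51a, Slc51b, the repressor Nr0b2 (SHP) and the hormone Fgf15. FGF15 travels to the liver and lowers bile acid synthesis there. In the mouse intestine Slc10a2, Fabp6 and Fgf15 are textbook genes of the distal ileum, whereas the transcription factor Gata4 and the lactase gene Lct belong to more proximal segments.

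Between 11695887 and 22180274 reads per library were assigned to genes. Values are given below as CPM, the counts scaled to the library size of the tested genes times a TMM factor. This edgeR factor adjusts for composition and ran from 0.914 to 1.07. A count of 3, taken as the floor of detection, equalled 0.139 to 0.267 CPM depending on the library, a limit that covers counting error only. The labels give no replicate numbers, so libraries are numbered within a group in order of deposit. Scrapings hold cells other than enterocytes, and fewer cells of a type cannot be told apart from less RNA per cell. Dosing was visible at 10 and 30 µg/kg in Cyp1a1, the classical target of the aryl hydrocarbon receptor. It ranged from 19.0 to 27.5 CPM in vehicle and, overlapping it, from 22.2 to 141 CPM at 3 µg/kg. It reached 872 to 1333 CPM at 10 µg/kg and 2608 to 3251 CPM at 30 µg/kg. Of 6 listed targets, 0, 3 and 4 were called higher than vehicle at 3, 10 and 30 µg/kg (edgeR, thresholds below). Over all genes tested 0.0569%, 0.487% and 3.08% were. At 3 µg/kg 1 target was called lower, with 0.171% of all genes. Cyp1a2 had 0 counts there against 0.788 to 2.31 CPM in vehicle, and was at 1.38 to 1.81 CPM at 30 µg/kg.

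At 3 µg/kg TCDD, and at no other dose, the libraries held Fabp6, Slc10a2 and Fgf15 transcripts well above the level of the 9 other libraries. The exporter chains Slc51a and Slc51b and the receptor gene Nr1h4 were expressed in every library and passed the test at no dose. Slc51b was called at 30 µg/kg only once a score of circadian clock genes entered the fit. Whether the dose moved that score was not tested. Nr0b2 was at or near 0 throughout. Neither Fabp6 nor Slc10a2 nor Fgf15 followed the dose, since all 3 were low again at 10 and 30 µg/kg.

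**Figure D1:**
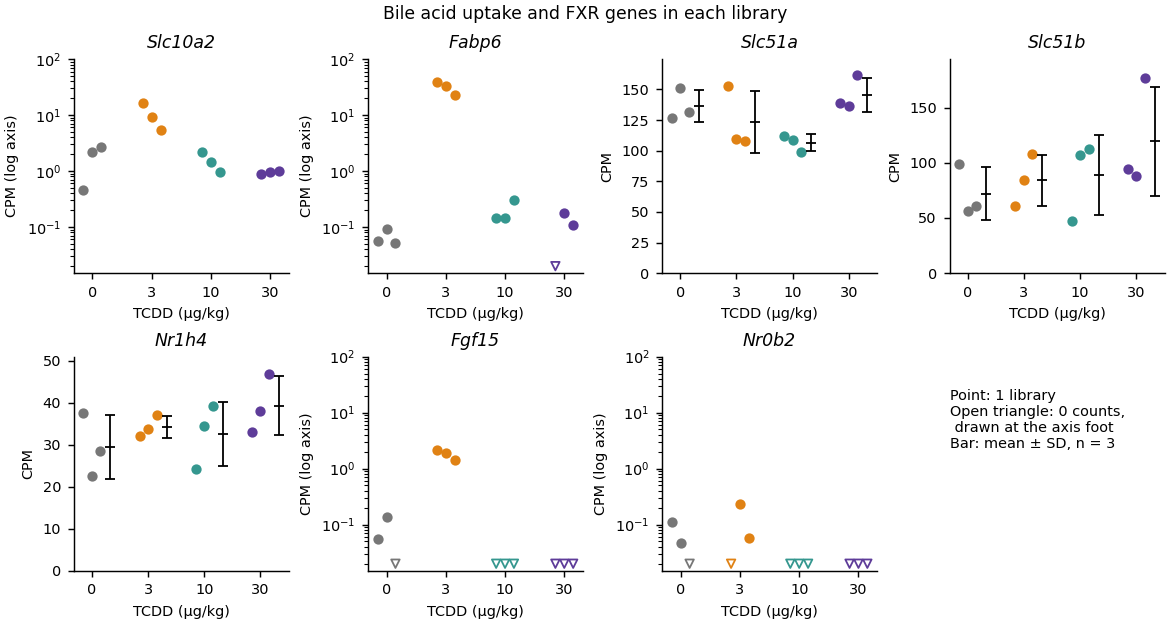
CPM of the 7 genes (vertical axis, logarithmic for Slc10a2, Fabp6, Fgf15 and Nr0b2) in each library against the TCDD dose in µg/kg; open triangles are libraries with 0 counts and bars on the linear panels are mean ± SD of 3 libraries. The 3 libraries of 3 µg/kg lie above the 9 others for Slc10a2, Fabp6 and Fgf15, while the groups overlap for Slc51b and Nr1h4.

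Fabp6 encodes the bile acid binding protein of the ileal cytosol and is normally among the most abundant transcripts of the distal ileum. The vehicle libraries held 1, 2 and 1 counts of it, followed by 508, 556 and 390 counts at 3 µg/kg, 2, 2 and 5 counts at 10 µg/kg, and 0, 2 and 2 counts at 30 µg/kg. In CPM the 3 µg/kg libraries were at 38.3, 32.5 and 22.9, and the highest of the other 9 was at 0.306. The groups therefore did not overlap, and 9 of the 12 libraries were at or close to the floor.

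Pooled over the group, Fabp6 at 3 µg/kg was 447 times vehicle, with an exact 95% counting interval of 174 to 1640 because vehicle held only 4 counts in all. The same ratio was 150 (78.8 to 329) against 10 µg/kg and 376 (147 to 1380) against 30 µg/kg. In the fit across all 15823 genes tested, Fabp6 was called higher at 3 µg/kg than in vehicle (edgeR quasi-likelihood test, Benjamini-Hochberg adjusted p = 3.91e-07) and lower at 10 than at 3 µg/kg (adjusted p = 1.11e-06), where a call needs an adjusted p under 0.05 and a change of at least 1.5-fold. Both calls held when any single library was left out. However, Fabp6 passed the filter on low counts only through the 3 µg/kg libraries. A difference was thus built into its being tested, and these p-values are no separate support for it.

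Slc10a2, the apical uptake transporter, stood at 0.451, 2.22 and 2.68 CPM in vehicle, at 16.5, 9.11 and 5.46 CPM at 3 µg/kg, at 2.16, 1.45 and 0.980 CPM at 10 µg/kg, and at 0.868, 0.978 and 0.986 CPM at 30 µg/kg. The lowest library of 3 µg/kg was thus above the highest of the 9 others, and vehicle replicate 1, with 8 counts against 48 and 51, was apart from its group. The log2 change at 3 µg/kg against vehicle was 2.51 ± 0.50 (SE), which missed the threshold (edgeR adjusted p = 0.0813), as did the change from 3 to 10 µg/kg of -2.76 ± 0.52 (adjusted p = 0.0891). Slc10a2 did pass when the 4 groups were tested for any difference (edgeR adjusted p = 0.00257).

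The call on Slc10a2 turned on the setting. DESeq2 called it at 3 µg/kg against vehicle (adjusted p = 0.000288), as did edgeR with no filter on low counts (adjusted p = 0.000913) and with a clock score, defined below, as a covariate (adjusted p = 0.000795). The fall from 3 to 10 µg/kg was called in these settings too (adjusted p = 6.8e-05, 0.000469 and 0.00176 in the same order), whereas limma-voom called neither change (adjusted p = 0.115 and 0.315). Without vehicle replicate 1 edgeR called the fall (adjusted p = 0.0146) but not the rise over vehicle (adjusted p = 0.126). At 10 and 30 µg/kg the log2 changes from vehicle were -0.25 ± 0.55 and -0.93 ± 0.58, neither of which passed.

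Fgf15, the enterocyte hormone that FXR induces, had 1, 3 and 0 counts in vehicle and 28, 32 and 24 counts at 3 µg/kg. No read was assigned to it in any library of 10 or 30 µg/kg. In CPM the 3 µg/kg libraries were at 2.11, 1.87 and 1.41, which is low in absolute terms but apart from every other library.

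Pooled Fgf15 counts at 3 µg/kg were 25.9 times vehicle (exact 95% counting interval 9.73 to 97.1). Taking the floor of 3 counts over the group, they were at least 26.0-fold higher than at 10 µg/kg and at least 29.0-fold higher than at 30 µg/kg. Fgf15 was called at 3 µg/kg against vehicle (edgeR adjusted p = 0.0323) and between 3 and 10 µg/kg (adjusted p = 0.0238). Like Fabp6, it passed the filter on low counts only through the 3 µg/kg libraries, so these p-values are no separate support. The call against vehicle rested on few counts and was lost, with an adjusted p between 0.0549 and 0.170, when any vehicle library, replicate 2 or 3 of 3 µg/kg, or replicate 2 of 10 µg/kg was left out. The call between 3 and 10 µg/kg was lost, with an adjusted p between 0.0505 and 0.113, without any library of either group or without vehicle replicate 1. In GENCODE M21 787 of the 3058 exonic bases of Fgf15 also lie in antisense genes, and the strand setting of the counting is not given in the sources used here.

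Fabp6 and Fgf15 were thus 2 of the 9 genes called higher at 3 µg/kg than in vehicle; 0.228% of the genes tested were called there in either direction and 0.0569% were called higher. They passed the filter on low counts only through the 3 µg/kg libraries, so that a difference was built into their being tested. Between 3 and 10 µg/kg they were the only genes called lower, 0.0126% of those tested, with 0.158% called in either direction. In the test of any difference 6.78% of all genes were called, Fabp6 (edgeR adjusted p = 3.01e-08), Fgf15 (adjusted p = 0.00132) and Slc10a2 among them.

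Within the 3 µg/kg group replicate 3 was the lowest for Fabp6, Slc10a2 and Fgf15, in counts as in CPM. Replicate 1 was the highest in CPM for all 3 genes, with a TMM factor of 0.914 against 1.07 in replicate 2. By counts replicate 2 was above replicate 1 for Fabp6 (556 against 508) and Fgf15 (32 against 28). For Slc10a2 it was below (156 against 218). The order of replicates 1 and 2 for Fabp6 and Fgf15 thus depended on the scaling, and no agreement between genes is read from it. Fgf15 made up 5.22%, 5.44% and 5.80% of the reads of Fabp6 and Fgf15 together in replicates 1, 2 and 3, with exact 95% intervals of 3.50% to 7.46%, 3.75% to 7.60% and 3.75% to 8.50%, so the shares did not differ beyond counting error. Fabp6 exceeded Slc10a2 by 2.33, 3.56 and 4.19 times in CPM in the same libraries, a ratio that was less even.

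In 0.727% of genes tested all libraries of 3 µg/kg lay above the 9 others, Fabp6, Slc10a2 and Fgf15 among them.

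The promoters of the apical transporter and the cytosolic carrier are shown because both genes had their 3 highest libraries at 3 µg/kg. RefSeq windows on GRCm38.p6 were found for 6 of the 7 genes, and the 250 bases before the start are printed 5′ to 3′ on the gene's strand, in capitals where they match IR-1, the inverted repeat of the half-site AGGTCA with 1 base between that FXR binds with RXR (up to 2 mismatches, both strands).
Fabp6, chr11:43601563-43601812, minus strand: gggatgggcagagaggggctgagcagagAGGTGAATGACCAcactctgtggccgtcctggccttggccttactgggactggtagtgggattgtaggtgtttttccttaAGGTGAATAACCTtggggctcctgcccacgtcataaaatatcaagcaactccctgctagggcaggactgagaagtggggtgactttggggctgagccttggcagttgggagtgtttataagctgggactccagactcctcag
Slc10a2, chr8:5105288-5105537, minus strand: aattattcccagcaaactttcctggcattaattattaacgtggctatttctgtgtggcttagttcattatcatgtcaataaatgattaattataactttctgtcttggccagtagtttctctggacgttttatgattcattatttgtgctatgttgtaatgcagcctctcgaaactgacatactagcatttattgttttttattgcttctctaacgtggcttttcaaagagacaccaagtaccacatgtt

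Fabp6 held 2 such matches, with first bases at -222 and -142 from the start, and 0.992% of 27025 RefSeq windows of the same length held at least 1. None was found in the windows of Slc10a2, Slc51a, Slc51b, Nr1h4 or Nr0b2. The windows follow RefSeq starts. Against the gene bounds of GENCODE M21 they lie partly inside the gene for Slc10a2, mostly for Slc51b and wholly for Nr1h4. Other starts of these genes were not searched. The dioxin response core GCGTG, searched on both strands, occurred in 28.2% of windows and among these 6 genes only in that of Nr0b2. The sequence CAAGGTCA, bound by LRH-1 (Nr5a2) and sharing its last 6 letters with that half-site, was matched with up to 1 mismatch on either strand in 19.6% of windows, with 3 matches in Fabp6, 2 in Nr0b2 and 1 in Slc51a. These matches describe letters in a short window and not binding.

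Because Fabp6, Slc10a2 and Fgf15 are textbook genes of the distal ileum, other genes of that segment were read beside them. None of 15 distal enterocyte markers chosen without the 7 genes had its 3 µg/kg libraries all above the 9 others. Their summed level was 8368 to 10240 CPM in vehicle, 7665 to 10850 CPM at 3 µg/kg, 7684 to 8539 CPM at 10 µg/kg and 8053 to 8573 CPM at 30 µg/kg, ranges that overlapped. In every library this sum was far above the 22.9 to 38.3 CPM that Fabp6 reached at 3 µg/kg. The markers therefore could not register a small share of distal tissue, which was not tested. The median log2 change of the 15 markers at 3 µg/kg was -0.07, against 0.00 over all genes, and 0 were called by edgeR, DESeq2 or limma-voom (in edgeR 1 had an unadjusted p under 0.05). At 10 µg/kg DESeq2 called 3 of them among 262 genes in all, and the other tools 0. At 30 µg/kg edgeR and DESeq2 called 1 each and limma-voom 2, with 3.97% of all genes called in edgeR. The sum joined markers that moved apart. From vehicle to 30 µg/kg Cubn fell from 1110 to 1452 CPM to 158 to 385 CPM. Tmigd1 rose from 24.7 to 32.2 CPM to 99.6 to 143 CPM. At 30 µg/kg 6 of the 15 had a log2 change above 0.

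The labelled proximal ileum could also be set against markers of more proximal gut. Gata4 was between 143 and 170 CPM in every library and Lct between 2080 and 3831 CPM. The summed level of 10 proximal enterocyte markers was 10830 to 11930 CPM in vehicle, 7879 to 12380 CPM at 3 µg/kg, 8944 to 11090 CPM at 10 µg/kg and 8352 to 12300 CPM at 30 µg/kg. Most of this sum was Apoa4, at 3780 to 6781 CPM, and Lct. Fabp1 (602 to 982 CPM), Rbp2 (560 to 1395 CPM) and Slc2a2 (335 to 1043 CPM) were also well expressed in every library. Onecut2 was at 47.9 to 116 CPM. Low in every library were Pdx1 at 0.817 CPM or less, Cybrd1 at 1.43 to 3.56 CPM and Slc40a1 at 2.68 to 8.63 CPM. The proximal markers thus did not separate the 3 µg/kg libraries from the 9 in which Fabp6, a defining transcript of the distal ileum, was at 0.306 CPM or less.

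Transcripts of other organs also differed by group. Car1, a carbonic anhydrase of the colon, had 0 counts in the 9 libraries of vehicle, 3 and 30 µg/kg and 55.7, 62.2 and 43.7 CPM at 10 µg/kg. The pancreatic protease gene Ctrb1 was at 1.92 to 2.69 CPM in vehicle, at 0 to 0.117 CPM at 3 µg/kg, at 0.576 to 0.871 CPM at 10 µg/kg and at 0.219 to 0.889 CPM at 30 µg/kg. Summed over 7 colon markers the level was 48.4 to 59.1 CPM in vehicle, 31.5 to 53.2 CPM at 3 µg/kg, 79.6 to 104 CPM at 10 µg/kg and 37.0 to 48.1 CPM at 30 µg/kg. With Car1 at 0 in vehicle, the sum there came from other listed genes. Of the 7, 4 were at 0 throughout the 3 µg/kg group, 4 at 30 µg/kg, 2 in vehicle and 0 at 10 µg/kg. Over 6 pancreatic acinar markers the level was 7.36 to 9.30, 2.34 to 3.58, 5.40 to 5.88 and 2.76 to 3.61 CPM in order of rising dose. Of these, 3 were at 0 throughout the 3 µg/kg group, 1 at 30 µg/kg and 0 in vehicle or at 10 µg/kg. Liver markers summed to at most 0.830 CPM in any library. The part of tissue from other segments or organs in the Fabp6, Slc10a2 and Fgf15 values was not tested, and the dose and any batch of dissection or library preparation cannot be told apart, since the labels give no date.

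**Figure D2:**
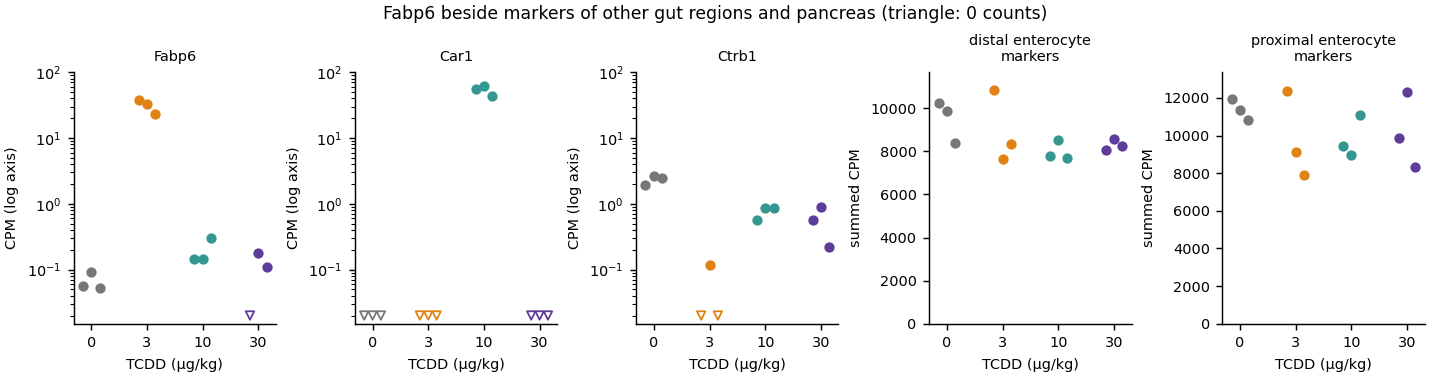
CPM of Fabp6, Car1 and Ctrb1 (logarithmic axes, open triangles for 0 counts) and summed CPM of 15 distal and 10 proximal enterocyte markers (linear axes) in each library against the TCDD dose in µg/kg. Fabp6 is high only at 3 µg/kg, Car1 only at 10 µg/kg and Ctrb1 is highest in vehicle, while the summed enterocyte markers overlap between groups.

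The basolateral exporter was present everywhere. Slc51a stood at 127, 151 and 131 CPM in vehicle, at 153, 109 and 108 CPM at 3 µg/kg, at 112, 108 and 99.1 CPM at 10 µg/kg, and at 139, 137 and 162 CPM at 30 µg/kg. The 3 libraries of 10 µg/kg were below those of vehicle and of 30 µg/kg, and only replicate 1 of 3 µg/kg reached the vehicle range. The share of all genes tested with the same separation was not taken, so nothing is read from it.

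The log2 changes of Slc51a from vehicle were -0.14 ± 0.13, -0.36 ± 0.13 and 0.10 ± 0.13 in order of rising dose, and none passed (edgeR adjusted p = 0.718, 0.230 and 0.725). From 10 to 30 µg/kg it differed by 0.45 ± 0.13, or 1.37-fold, which did not pass either (adjusted p = 0.0753). In the annotation 567 of its 3198 exonic bases also belong to Pcyt1a on the opposite strand, so reads of the overlap could be lost or shared.

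Slc51b, the second chain of the exporter, stood at 99.4, 55.9 and 60.5 CPM in vehicle, at 61.1, 84.0 and 108 CPM at 3 µg/kg, at 46.9, 107 and 112 CPM at 10 µg/kg, and at 94.0, 87.7 and 177 CPM at 30 µg/kg. The groups overlapped, and at 10 µg/kg the lowest library was under 0.5 of either other one. Group means were 71.9 ± 23.9 CPM (SD, n = 3) without TCDD and 119 ± 49.6 CPM with 30 µg/kg. The log2 change between them, 0.73 ± 0.36 (SE), did not pass (edgeR adjusted p = 0.254). An interval of 2 SE ran from 0.02 to 1.45, so that changes from none to more than 2-fold were compatible with these libraries.

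Nr1h4, the FXR gene, stood at 37.5, 22.5 and 28.6 CPM in vehicle, at 32.0, 33.8 and 37.2 CPM at 3 µg/kg, at 24.3, 34.4 and 39.1 CPM at 10 µg/kg, and at 33.1, 38.1 and 46.9 CPM at 30 µg/kg. Every group overlapped vehicle. Its log2 changes were 0.22 ± 0.20, 0.15 ± 0.20 and 0.42 ± 0.20 in order of rising dose, and none passed (edgeR adjusted p = 0.713, 0.759 and 0.250).

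Nr0b2, which encodes the small heterodimer partner, had 2, 1 and 0 counts in vehicle, 0, 4 and 1 counts at 3 µg/kg and 0 in every library of 10 and 30 µg/kg. With 8 counts in 12 libraries it was not tested, and a difference between groups was not detectable at this depth.

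**Figure D3:**
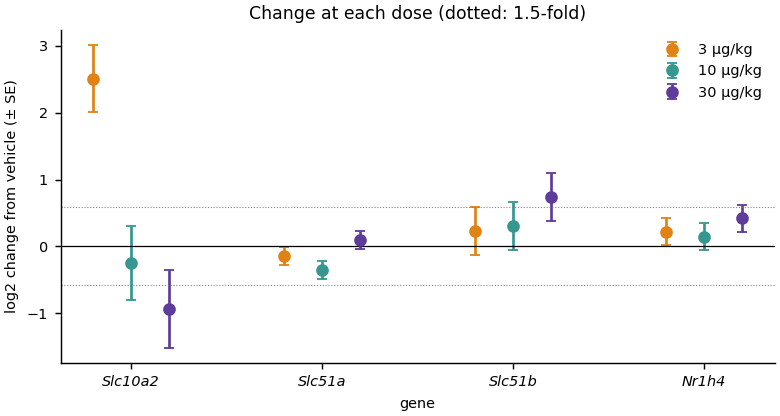
Log2 change from vehicle (vertical axis, edgeR estimate ± SE, 3 libraries per group) of the 4 tested genes whose counts allow a fitted change, at 3, 10 and 30 µg/kg TCDD; dotted lines mark 1.5-fold. Slc10a2 at 3 µg/kg is at 2.51, and the changes of Slc51a, Slc51b and Nr1h4 lie between -0.36 and 0.73.

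At 10 µg/kg 0 of the 6 tested genes were called against vehicle, with 0.613% of all genes called, and at 30 µg/kg 0 were called, with 3.97% of all genes called (edgeR). Unadjusted p-values were under 0.05 for 1 gene, Slc51a, at 10 µg/kg and for 0 at 30 µg/kg, and neither DESeq2 nor limma-voom called any at these doses. From 10 to 30 µg/kg 0 were called by any of the 3 tools (2.77% of all genes in edgeR), with an unadjusted p under 0.05 for Slc51a. The slope over the dose rank called 0 (3.29% of all genes), with an unadjusted p under 0.05 for Slc51b, whose fitted change over the whole range was 0.69 ± 0.31; DESeq2 called Fabp6 and limma-voom called 0.

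Per kilobase of exon, the scale on which genes can be compared, Slc51b ran from 66.1 to 249 CPM per kb over the 12 libraries, Slc51a from 31.0 to 50.6, Nr1h4 from 9.75 to 20.4 and Slc10a2 from 0.109 to 3.96. These 4 ranges did not overlap, so the order held in every library. Fabp6, whose exons span only 479 bases, reached 80.0, 67.8 and 47.8 CPM per kb at 3 µg/kg, with a group mean of 65.2 ± 16.3 (SD, n = 3) against 38.6 ± 7.98 for Slc51a and 119 ± 32.7 for Slc51b there, and at most 0.639 elsewhere. Fgf15 peaked at 0.691 and Nr0b2 at 0.206 CPM per kb.

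Since SLC51A and SLC51B work as a pair, the ratio of their CPM was taken in each library. Vehicle libraries gave 1.27, 2.70 and 2.17, those of 3 µg/kg gave 2.50, 1.30 and 1.01, those of 10 µg/kg gave 2.39, 1.01 and 0.881, and those of 30 µg/kg gave 1.48, 1.56 and 0.916. Mean log2 ratios in order of dose, from vehicle up, were 0.97 ± 0.56, 0.57 ± 0.68, 0.37 ± 0.78 and 0.36 ± 0.42 (SD, n = 3 each). Over all arrangements of the libraries the trend across doses did not pass (two-sided exact permutation test of the Jonckheere-Terpstra statistic, p = 0.294 over 369600 arrangements).

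The spread of Slc51b and Nr1h4 inside the groups ran with the expression of circadian clock genes. The core clock is a daily feedback loop in which the activators CLOCK, NPAS2 and ARNTL drive genes such as Dbp, Per2 and Nr1d1 through E-boxes (CACGTG). Per the study's methods tissue was collected in the first hours of the light phase. A clock score was computed per library as the mean z value of 7 genes that run with Dbp minus that of 3 that run opposite. It was positive in 6 libraries (1.13 to 2.22), namely 2 of vehicle, 1 of 3 µg/kg, 1 of 10 µg/kg and 2 of 30 µg/kg, and negative in the 6 others (-2.34 to -0.73).

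In each of the 4 groups Slc51b was lower in every library of positive score than in every library of negative score. In vehicle the positive libraries were at 55.9 and 60.5 CPM and the negative one at 99.4 CPM, and at 10 µg/kg the positive library was at 46.9 CPM against 107 and 112 CPM. Nr1h4 showed the same order in all 4 groups, for example 22.5 and 28.6 against 37.5 CPM in vehicle. This order was found in 6.78% of all genes tested, and the opposite one in 7.63%. Slc51a, Slc10a2 and Fabp6 followed neither order in all groups. Slc10a2 was higher in the positive libraries of vehicle (2.22 and 2.68 against 0.451 CPM) and of 3 µg/kg (16.5 against 9.11 and 5.46 CPM). So it was at 10 µg/kg (2.16 against 1.45 and 0.980 CPM), but not at 30 µg/kg. Slc51a was higher in those of vehicle (151 and 131 against 127 CPM) and 3 µg/kg (153 against 109 and 108 CPM). It was also higher at 10 µg/kg (112 against 108 and 99.1 CPM) but lower at 30 µg/kg. The share of all genes with such a partial order was not taken. With Slc51b lower there, the ratio of Slc51a to Slc51b was higher in the libraries of positive score in each group. Among the 6 libraries of positive score the ratio was 1.48 and 1.56 at 30 µg/kg and 2.17 to 2.70 in the other groups. When libraries were rearranged only within the 6 of positive and the 6 of negative score, the order of the ratio over the doses gave p = 0.0355 (two-sided exact permutation test of the summed Jonckheere-Terpstra statistic, 32400 arrangements). This test was chosen after these values were seen, when the sign of the score was known to order Slc51b in each group. Its p is therefore no support for a fall with dose, and the test over all arrangements did not pass. The mean log2 ratio at 30 µg/kg minus that of vehicle was then -0.67 among libraries of positive score and -0.48 among those of negative score, where both groups had 1 library.

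**Figure D4:**
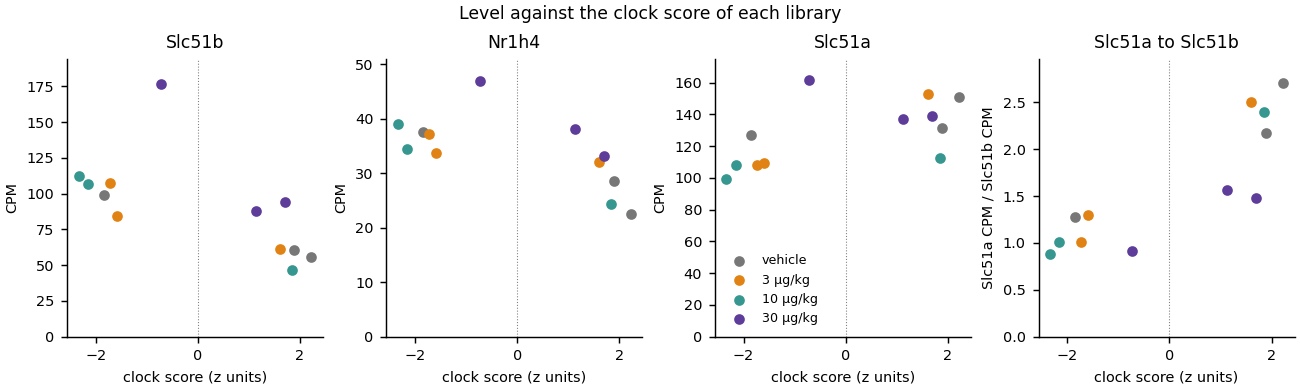
CPM of Slc51b, Nr1h4 and Slc51a, and the ratio of Slc51a to Slc51b CPM (vertical axes), against the clock score of each of the 12 libraries, coloured by group. Within each group Slc51b and Nr1h4 are lower, and the ratio higher, to the right of the dotted line at 0.

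With the clock score as a covariate in the edgeR fit, Slc51b was called at 30 µg/kg against vehicle (log2 change 0.71 ± 0.13, adjusted p = 0.00341) and against 10 µg/kg (0.88 ± 0.14, adjusted p = 0.00195), where 5.44% and 3.73% of all genes were called in that fit. The test of any difference then called 5 of the 7 genes, Slc51b and Nr1h4 in addition, with 12.8% of all genes called. Nr1h4 then differed at 30 µg/kg from vehicle by 0.42 ± 0.11 (adjusted p = 0.0226), below the 1.5-fold threshold. In the same fit the changes of Slc51b at 3 and 10 µg/kg turned slightly negative, at -0.10 ± 0.14 and -0.17 ± 0.14 (adjusted p = 0.816 and 0.598). The 30 µg/kg libraries also stood apart in other measures. Reads outside annotated genes were 25.0% to 25.4% of their total against 28.0% to 30.1% elsewhere, and reads aligned to more than 1 place were 36.2% to 38.8% against 31.4% to 34.6%. The summed level of 6 Paneth cell markers was 661.6 to 1003 CPM in vehicle, 673.7 to 1694 CPM at 3 µg/kg, 1053 to 1434 CPM at 10 µg/kg and 2077 to 2797 CPM at 30 µg/kg, where 5 of the 6 were called higher than in vehicle (edgeR, no covariate). None of the 6 was at 0 in every library of a group. The part of these differences in the Slc51b values was not tested. The clock score was taken from the same libraries, after dosing. It was -1.85, 2.22 and 1.89 in vehicle and 1.70, 1.13 and -0.73 at 30 µg/kg. The study cites a report that TCDD abolished oscillating gene expression in the liver with rising dose. Whether the dose, the time of sampling or another feature of the animals set the clock score was not tested. The call on Slc51b thus depends on a covariate that the dose may have moved.

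Slc51b and Nr1h4 varied together over the 12 libraries on the log2 CPM scale (Pearson r = 0.91, two-sided permutation p = 4e-05, adjusted over 3 pairs p = 0.00012; Spearman rho = 0.89, permutation p = 0.00036, adjusted p = 0.00108). Without the 2 libraries farthest from the median of Slc51b, r was 0.83. Within the 6 libraries of positive clock score r was 0.82 (exact permutation p = 0.0361), and within the 6 of negative score 0.93 (exact permutation p = 0.0417). All these permutations ignored the dose groups, and those over 12 libraries also ignored the order by clock score shown above. The p-values thus do not separate a tie between these genes from a shared dose or clock. Those within 6 libraries were not adjusted. Slc51a was related to neither, with r = -0.04 to Slc51b (permutation p = 0.908, adjusted p = 0.908; rho = -0.25, p = 0.433, adjusted p = 0.562) and r = -0.04 to Nr1h4 (permutation p = 0.901, adjusted p = 0.908; rho = -0.19, p = 0.562, adjusted p = 0.562). Without the 2 libraries farthest from the median of Slc51a these 2 values were -0.37 and -0.27. Within the 6 libraries of positive score r was 0.34 to Slc51b and 0.20 to Nr1h4 (exact permutation p = 0.492 and 0.692), and within the 6 of negative score 0.75 and 0.77 (exact permutation p = 0.267 and 0.200).

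The promoters of the exporter pair are printed because the levels of these chains stood differently to the clock score. Capitals mark the E-box CACGTG, which reads the same on both strands.
Slc51a, chr16:32487880-32488129, minus strand: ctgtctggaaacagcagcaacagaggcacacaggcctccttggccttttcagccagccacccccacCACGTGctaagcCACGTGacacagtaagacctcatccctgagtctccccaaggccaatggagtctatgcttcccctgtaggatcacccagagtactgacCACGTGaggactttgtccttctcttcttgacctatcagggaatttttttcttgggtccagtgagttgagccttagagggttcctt
Slc51b, chr9:65422774-65423023, minus strand: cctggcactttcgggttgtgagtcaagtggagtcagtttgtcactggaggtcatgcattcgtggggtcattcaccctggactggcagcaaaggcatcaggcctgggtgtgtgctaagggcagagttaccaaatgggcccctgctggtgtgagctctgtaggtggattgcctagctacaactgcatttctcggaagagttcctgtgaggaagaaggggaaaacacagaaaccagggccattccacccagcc

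The Slc51a window held 3 E-boxes, with first bases at -184, -172 and -85, and the Slc51b window held 0. An E-box was found in 6.05% of 27025 windows and 3 or more in 0.0666%. The Nr0b2 window held 1, and those of Fabp6, Slc10a2 and Nr1h4 held 0. As stated above, the Slc51b window lies mostly and the Nr1h4 window wholly inside the annotated gene.

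The genes whose log2 CPM ran most closely with each member over the 12 libraries were listed as a description, without a test. For Fabp6 these were Cisd2 (Pearson r = 0.91), Hsf2 (0.86) and Rsf1 (0.86), and for Slc10a2 Cisd2 (0.90), Zfyve16 (0.88) and Ctdspl2 (0.87). Slc51a was closest to Akr1a1 (0.91), Cul9 (0.89) and 4933427I04Rik (0.89). Slc51b was closest to Sprr2a1 (0.95), Slc38a8 (0.94) and Rnase4 (0.93), and Nr1h4 to Gm10762 (0.89), Rabl6 (0.89) and Cnot11 (0.89). None of these 14 genes was called at 3 µg/kg against vehicle, and the correlations share the libraries' depth and, for Fabp6 and Slc10a2, rest on the 3 µg/kg libraries.

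Of 49 other genes of the pathway, 35 passed the filter. They comprised 17 nuclear receptors and transcription factors (16 tested), 5 genes of FGF15 signalling and bile acid receptors (3 tested), 13 other bile acid and sterol transporters (8 tested) and 14 genes of bile acid synthesis and conjugation (8 tested). At 3, 10 and 30 µg/kg against vehicle 0 of the 35 were called by edgeR, DESeq2 or limma-voom, and 2, 5 and 6 had an unadjusted p under 0.05 in edgeR. Their median log2 changes were -0.08, -0.12 and 0.04, against 0.00, -0.01 and -0.02 over all genes.

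The slope over dose rank called 2 of the 35, or Vdr and Malrd1, with 3.29% of all genes called. Vdr, a nuclear receptor that senses vitamin D and lithocholic acid, was at 381 to 406 CPM in vehicle, 354 to 460.5 at 3 µg/kg, 468 to 487 at 10 µg/kg and 527 to 629 CPM at 30 µg/kg. It rose by 0.60 ± 0.11 on the log2 scale over the dose range (edgeR adjusted p = 0.0080). Malrd1, a gene linked to FGF15 output of enterocytes, was at 202 to 217 CPM in vehicle, 169 to 259 at 3 µg/kg, 136 to 157 at 10 µg/kg and 117 to 158 CPM at 30 µg/kg. It fell by 0.65 on the log2 scale, with an SE of 0.15 (edgeR adjusted p = 0.0274).

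The test of any difference also called 2 of the 35, a share no higher than the 6.78% called over all genes. These were Vdr (edgeR adjusted p = 0.0127) and the glucocorticoid receptor gene Nr3c1 (adjusted p = 0.0223). Nr3c1 was the only tested pathway gene whose 3 µg/kg libraries lay above the 9 others, by a narrow margin of 224.5 against 220.6 CPM, and at 30 µg/kg it was at 163 to 168 CPM. The partner of FXR and 2 other nuclear receptors of the enterocyte did not pass. Rxra, the partner of FXR, was between 147 and 197 CPM in all libraries, Nr5a2 (LRH-1) between 30.6 and 40.2 CPM and Hnf4a between 736 and 996 CPM. Their log2 changes from vehicle at 3 µg/kg were -0.09 ± 0.11, 0.15 ± 0.09 and 0.07 ± 0.12, and none passed at any dose (edgeR).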

How the data were processed

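RNA was sequenced from 12 libraries, and the authors deposited raw counts of reads per Ensembl gene, 1 table per library and not normalised. The submitters' processing notes name FastQC 0.11.3, Trimmomatic 0.33, TopHat2 2.1.0, SAMtools 1.2.0, HTSeq 0.6.1 and DESeq, with the build GRCm38. The annotation release and strand setting are not given in the sources used here. Of 46078 genes 45229 matched GENCODE M21, and unmatched ones held 0.749% of counts. Entries for reads without a gene were left out.

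Counts were fitted with edgeR 4.0.16 (filterByExpr, TMM, quasi-likelihood, R 4.3.3) in 1 model of 4 groups, and p-values were Benjamini-Hochberg adjusted over 15823 genes. A call needed an adjusted p under 0.05 and a change of 1.5-fold (the adjusted p alone for any difference). Log2 CPM for scores and correlations used a prior count of 2. The fit was tested on simulated data. Alternatives used DESeq2 1.42.0, limma 3.58.1 (voom), other scalings, filters, covariates and left-out libraries.

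The 7 genes, lists and tests were chosen with earlier results of these data known. Named were the 7 genes, pathway genes called at a dose or over the dose rank, Rxra, Nr5a2, Hnf4a and Gata4. The 3 genes most like each member with a mean count of at least 50 were named too. Cyp1a1, Cyp1a2, Lct, Car1, Ctrb1, Nr3c1, Apoa4, Pdx1, Cybrd1, Slc40a1, Fabp1, Rbp2, Slc2a2, Onecut2, Cubn and Tmigd1 were added after their values were seen. The study describes 3 mice per group for this dose series; the labels tie no library to an animal, so p-values measure the spread between libraries.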

Additional observations from a re-analysis of the deposited data

How the results depend on the processing

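No paired analysis was possible because the labels carry no replicate numbers; the sequencing index, which recurs once in each group, was fitted as a covariate, but nothing says that it pairs libraries. At 3 µg/kg against vehicle, where 2 of the 7 genes were called, 3 were called with no filter on low counts, with DESeq2 or with the clock score (Slc10a2 added), 1 was called with the library index or the distal enterocyte score as a covariate or with only the groups compared, and 0 with at least 10 counts in every library, a filter that removes Fabp6, Fgf15 and Slc10a2; leaving out single libraries gave 1 to 2. Fgf15 then had an adjusted p of 0.144 with the index, 0.0675 with the distal score and 0.0685 with only the groups compared. Between 3 and 10 µg/kg the count of 2 became 3 under those same settings, with Slc10a2 added, 1 with the index or the distal score and 0 with the stricter filter, and 1 to 2 with a library left out. The clock score as a covariate called 1 gene (Slc51b) at 30 against vehicle and against 10 µg/kg, with 5.44% and 3.73% of all genes called, and 5 for any difference (12.8% of all genes; without it 3 and 6.78%, and 0 members under the stricter filter); leaving out libraries gave 0 at 30 against vehicle and against 10 µg/kg. For any difference, leaving out replicate 1 of 3 µg/kg called 4, with Slc51a added, among 1745 genes in all. Leaving out any other single library called 3. DESeq2 called 1, Fabp6, over the dose rank. The count of 0 at 10 µg/kg against vehicle held under all alternatives run. The p of the Slc51a to Slc51b ratio stayed above 0.05 (0.202 to 0.637) except when libraries were rearranged within positive and negative clock score, an alternative chosen after seeing the data (difference -0.58, exact permutation p = 0.0355). That alternative is no support for a fall with dose.

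Changes that turned sign were small. With the clock score these were Nr1h4 (-0.067), Slc10a2 (0.40) and Slc51b (-0.17) at 10 µg/kg against vehicle, Slc51b (-0.10) at 3 µg/kg against vehicle and Slc51b (-0.070) at 10 against 3 µg/kg. With single libraries left out the range crossed 0 for Nr1h4 at 10 against 3 µg/kg (-0.22 to 0.10) and at 10 µg/kg against vehicle (-0.015 to 0.36), Slc10a2 at 10 µg/kg against vehicle (-0.68 to 0.15), Slc51b at 10 against 3 µg/kg (-0.13 to 0.38) and Slc51a over the dose rank (-0.10 to 0.15). The cause was not tested. Counts over all genes moved more: edgeR called 36 at 3 µg/kg against vehicle (6 to 84 under other settings, 19 to 162 with a library left out), 97 at 10 µg/kg (55 to 262, and 45 to 198), 25 at 10 against 3 µg/kg (13 to 43, and 9 to 27), 439 at 30 against 10 µg/kg (188 to 543 with a library left out), 1073 for any difference (636 to 2143, and 562 to 1745) and 520 over the dose rank (371 to 809, and 297 to 640).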
